A study of Mus musculus with 120 samples.

Results

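The induction of Olig1 was profiled in 6 Affymetrix Mouse430_2 arrays, out of 120 arrays in a bank of mouse embryonic stem (mES) cell clones made to overexpress orthologs of human chromosome 21 genes one at a time. The members are the arrays whose titles name an Olig1 clone: 3 of induced cells, labelled T24, 24 hours after tetracycline (Tc) was taken out of the medium, and 3 of uninduced cells, labelled T0, kept in Tc. The induced and the uninduced arrays came from the same 3 clones, numbered 1 to 3, and the arrays of 1 number were compared as a pair. All 6 carry the mouse Olig1 coding sequence with a FLAG tag in the ROSA26 locus of the EB3 line under the Tet-off system, in medium with leukaemia inhibitory factor, so that the uninduced clones hold the transgene too. Parental EB3 arrays were not analysed here, and the clones all stem from 1 line. Olig1 induction was also set against the 13 other experiments labelled T24 on the same array (78 arrays), and in particular against Olig2.

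Olig1 and Olig2 are basic helix-loop-helix transcription factors that bind DNA as dimers with partners such as the E proteins, and that are held in check by Id proteins, which lack the basic region. Olig2 is required for motor neuron and oligodendrocyte progenitors of the ventral neural tube, and Olig1 for the maturation of oligodendrocytes and their repair of myelin. In the mouse both genes lie on chromosome 16, in GRCm38.p6 at chr16:91269769-91271939 (Olig1) and chr16:91225550-91228677 (Olig2).

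The ends of the transgenes are defined by the cloning primers, which are shown because they decide which part of the transcript the clones express. The capitals mark the AscI site of the forward primer, followed at once by the start codon, and the PacI site of the reverse primer, which joins the last codons to the tag.
Olig1 forward: GGCGCGCCatgtactatgcgatttcccagg
Olig1 reverse: TTAATTAActtggagaactgggcctgcacc
Olig2 forward: GGCGCGCCatggactcggacgccagcctgg
Olig2 reverse: TTAATTAActtggcgtcggaggtgaggcgc
Induction had been followed by quantitative PCR with a separate pair of primers, printed here without capitals because no site is marked.
Olig1 q-PCR forward: tcttccaccgcatcccttct
Olig1 q-PCR reverse: cgagcagcagcgtggcaatc
The transgene holds coding sequence alone, and the position of the array's Olig1 probes was not given in the sources used here, so a probeset outside the coding sequence does not measure it.

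The Olig1 probeset did not differ between induced and uninduced cells beyond the spread of the clones. Its single probeset, annotated to Olig1, had log2 levels of 4.50, 4.63 and 4.23 in the induced clones 1, 2 and 3, against 4.52, 4.35 and 4.46 in the uninduced ones. The induced arrays held both the highest and the lowest of the 6 values. The mean was 4.45 ± 0.20 in induced and 4.45 ± 0.09 in uninduced clones (SD, n = 3 each), a log2 difference of 0.01 with a standard error of 0.11 (limma adjusted p = 0.999). These levels lay below the median probeset mean of 4.98. The label of the experiment therefore rests on the submitters and was not checked by this probeset. The assays of the transgene by q-PCR and of tagged protein by western blot were not analysed here. The Olig2 probeset had 2.51, 2.70 and 2.67 in the induced and 2.67, 2.66 and 2.76 in the uninduced Olig1 clones, under the lower quartile of every array (3.52 to 3.60). In the Olig2 experiment the same Olig2 probeset differed by −0.09, and the Olig1 probeset by 0.14.

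The markers of pluripotent cells were at high levels in both states. Pou5f1, which encodes Oct4, had 13.12, 13.12 and 12.89 in the induced clones against 12.95, 13.06 and 12.84 in the uninduced ones. Nanog had 12.39, 12.34 and 12.15 in the induced clones, against 12.28, 12.39 and 12.08 in the uninduced ones. Sox2 had 11.96, 12.55 and 12.06 in the induced clones, against 11.92, 12.48 and 12.09 in the uninduced ones. The log2 differences of the 3 factors were 0.09, 0.04 and 0.03, with standard errors of 0.08 each.

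**Figure D1:**
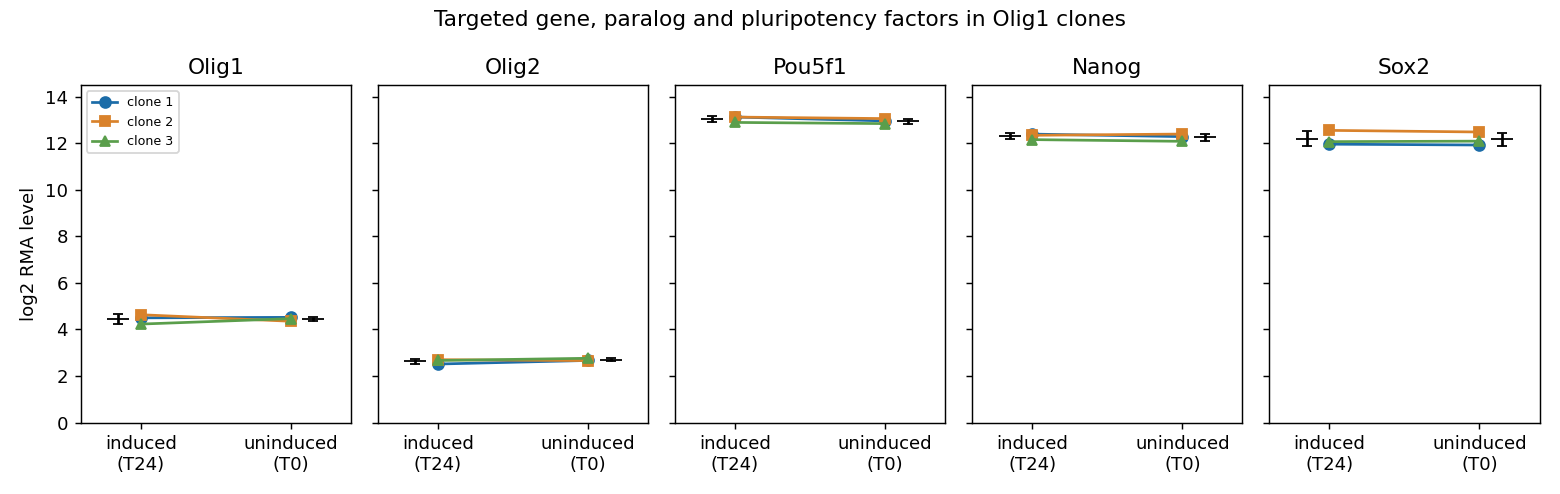
Log2 RMA level (vertical axis) of Olig1, Olig2, Pou5f1, Nanog and Sox2 in the 3 Olig1 clones, induced (T24) left of uninduced (T0). Lines join the arrays of a clone, and the black marks give the mean and SD of 3 arrays. The Olig1 lines stay between 4.23 and 4.63 and those of Pou5f1 between 12.84 and 13.12.

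Array controls set the ground for the small differences that follow. The medians of the 6 arrays lay between 4.94 and 5.02, and arrays of 1 clone correlated at 0.997, against 0.991 to 0.996 between clones. All 24 probesets of the poly-A spike-in controls, bacterial transcripts that are added to the RNA before labelling, were lower in the induced arrays, with a median log2 difference of −0.29 (−0.61 to −0.13), and 17 of them had an unadjusted p under 0.05. The 18 probesets of the hybridization controls were higher in the induced arrays by 0.02 to 0.20, and none reached that p. The 3 probesets of 18S ribosomal RNA had median differences of −1.30, 0.87 and −1.18 in clones 1, 2 and 3. The part of these controls in the differences between genes was not tested.

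No probeset passed the test of Olig1 induction. Of the 45101 probesets, 0 (0%) had a limma adjusted p under 0.05, and the lowest adjusted p was 0.992. At an unadjusted p under 0.05 there were 1916 (4.25%), with 958 higher (2.12%) and 958 lower (2.12%) in the induced clones, and at 0.01 there were 278 (0.616%). The Cyber-t form of test, which steadies each variance with that of probesets of like level, and fits that took the spread from the other experiments also called 0. The 95% interval of a difference had a median reach of 0.21 to either side on the log2 scale, and no probeset differed by more than 1. The responses of the clones correlated across probesets at −0.13 (clones 1 and 2), 0.15 (clones 1 and 3) and −0.12 (clones 2 and 3), as a description over probesets that are not independent. With 3 arrays a state, the precision is limited by their number.

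The largest positive difference was that of a probeset of Fscn1, which encodes the actin-bundling protein fascin. Its levels were 9.55, 9.61 and 9.78 in the induced clones 1, 2 and 3, against 8.17, 10.15 and 8.23 in the uninduced ones. Clones 1 and 3 were higher after induction by 1.38 and 1.55, and clone 2 lower by 0.54, which gave a mean difference of 0.79 with a standard error of 0.36 (limma adjusted p = 0.992). Without clone 2, this Fscn1 probeset was higher by 1.46 (limma adjusted p = 0.0264), and the other probeset called in that setting was one of 18S ribosomal RNA, lower by 1.38. It is not the brightest probeset of Fscn1, since over the brightest probeset of each gene the largest positive difference was 0.58. Fscn1 was named after its values had been seen.

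A description of the genes that moved most evenly follows, none of which passed the test over all probesets. They were drawn from probesets brighter than the median, with an unadjusted p under 0.01 and 1 direction in all clones, a rule that uses the contrast itself and fixes their small p. It left 16 genes higher and 43 lower in the induced clones, of which the 15 with the largest difference in each direction are given. The differences ran from 0.29 to 0.47 on the higher side and from −0.36 to −0.63 on the lower side. The induced and uninduced groups did not overlap in 16 of the 30, against 2830 of all probesets (6.27%, with 3.88% higher and 2.39% lower), from which nothing is read since the rule used that contrast.

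Among those higher after induction, Spaca3, a lysozyme-like protein of the sperm acrosome, had 5.54, 5.24 and 4.99 in the induced clones, against 5.09, 4.54 and 4.74 in the uninduced ones (difference 0.47, standard error 0.10). The groups overlapped, since the lowest induced clone lay below the highest uninduced one. Pym1, which acts on the exon junction complex during translation, had 7.10, 7.76 and 7.41 in the induced clones, against 6.52, 7.43 and 7.02 in the uninduced ones (difference 0.43, standard error 0.09). Fzd3, a Wnt receptor needed for axon growth, had 5.17, 5.66 and 5.32 in the induced clones, against 4.81, 5.31 and 4.86 in the uninduced ones. In Pym1 and Fzd3 the clones kept their order in both states. Asap1, a GTPase-activating protein of Arf, had 5.65, 5.80 and 5.70 in the induced clones, against 5.30, 5.44 and 5.24 in the uninduced ones, with no overlap. The histone methyltransferase gene Kmt2d (difference 0.36), the prostaglandin receptor gene Ptger1 (0.34), the ubiquitin ligase gene Rnf185 (0.33), the CaMKII inhibitor gene Camk2n1 (0.32) and the chemokine gene Ccl4 (0.29) stood beside them, with Shisal2b, Zfp865, Tmem213, Mapk12, Zfp444 and Plppr2.

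Among those lower after induction, Etnk1, an ethanolamine kinase of phospholipid synthesis, had 4.59, 4.75 and 5.51 in the induced clones, against 5.29, 5.58 and 5.87 in the uninduced ones (difference −0.63, standard error 0.11). The induced clone 3 lay above the uninduced clone 1, so that the groups overlapped although each clone was lower. Rai14, an actin-associated ankyrin repeat protein, had 4.88, 4.65 and 4.66 in the induced clones, against 5.06, 5.21 and 5.52 in the uninduced ones (difference −0.53, standard error 0.13). Rai14 also fell by 0.43 in the Olig2 clones (limma adjusted p = 0.0290). Pds5a, a regulator of cohesin, differed by −0.41, −0.28 and −0.55 in clones 1, 2 and 3. Cert1, which carries ceramide to the Golgi, had 5.86, 5.74 and 5.93 in the induced clones, against 6.32, 6.17 and 6.20 in the uninduced ones, and Pds5a and Cert1 showed no overlap. Ocln, the tight junction protein occludin, had 4.94, 5.11 and 4.56 in the induced clones, against 5.28, 5.53 and 4.95 in the uninduced ones (difference −0.38), and rose by 0.44 in the Olig2 clones (limma adjusted p = 0.0419). Nrip1, a corepressor of nuclear receptors, had 5.40, 5.53 and 5.21 in the induced clones, against 5.64, 5.86 and 5.72 in the uninduced ones. The others were Glipr1, Fars2, Khnyn, Jmjd1c, 2610005L07Rik, Coro1a, Kif21a, Pdpr and Gss. A single probeset stands for each gene, the one with the largest difference among those that met the rule. For Etnk1 and Rai14 it was not the brightest, since over the brightest probeset of each gene the most negative difference was −0.43.

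**Figure D2:**
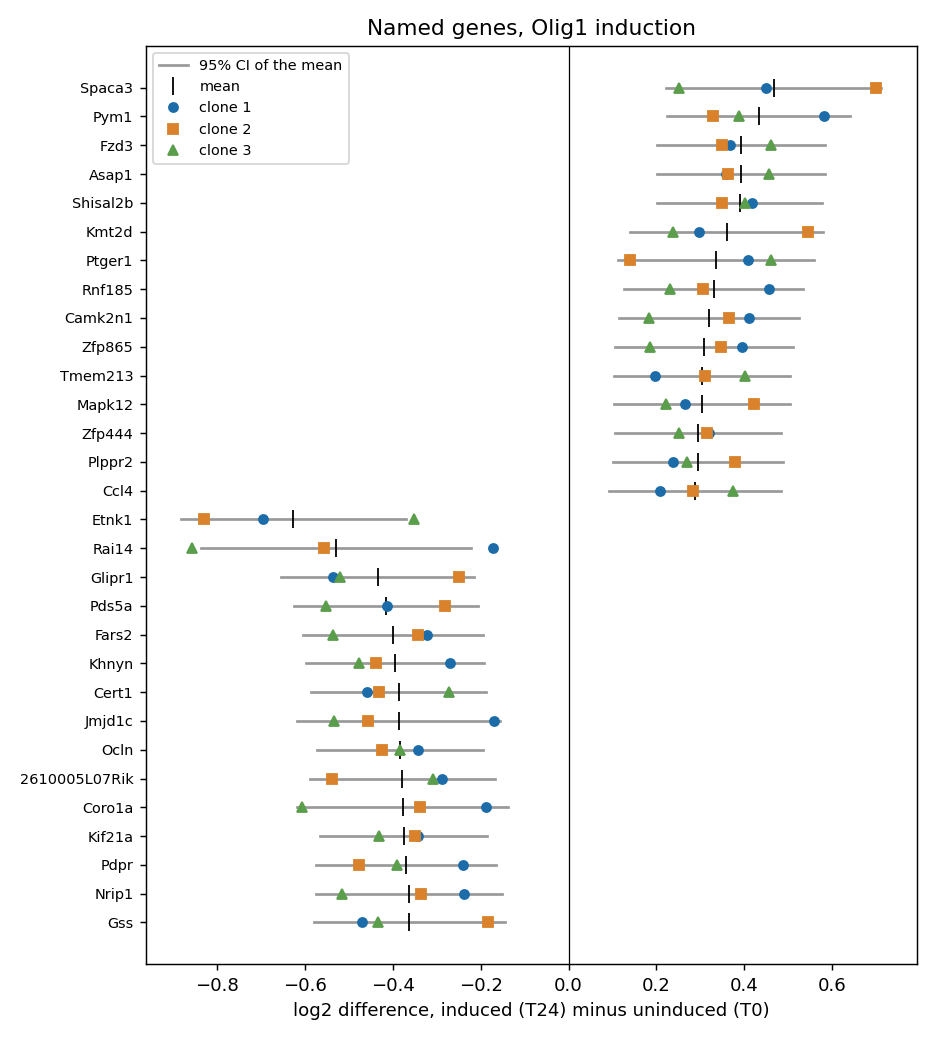
Log2 difference, induced (T24) minus uninduced (T0), for the 30 named genes (vertical axis). Coloured symbols are the 3 clones, the black tick is their mean and the grey bar its 95% interval from the limma fit. The means run from 0.29 to 0.47 above and from −0.63 to −0.36 below zero, and none passed the test over all probesets.

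Of 25 lists of genes of cell types and pathways, which hold 505 measured genes, 0 genes passed the test and 13 (2.57%) had an unadjusted p under 0.05, beside 624 of all 18194 genes with 1 probeset each (3.43%). The medians of the lists lay between −0.06 and 0.07, beside −0.0045 over all genes with 1 probeset each and −0.0016 over all probesets. In the family of Olig factors and their partners, 19 of 20 genes were measured, 0 passed the test in either direction, and the median was 0.01. The E protein genes Tcf3, Tcf4 and Tcf12 differed by 0.16, −0.09 and −0.19, and the inhibitor genes Id1, Id2, Id3 and Id4 by 0.04, −0.08, −0.01 and −0.08. Bhlha15, a bHLH factor of secretory cells, had 5.04, 4.80 and 5.00 in the induced clones, against 4.85, 4.58 and 4.75 in the uninduced ones (difference 0.22, limma adjusted p = 0.992).

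No gene of the oligodendrocyte lineage passed the test. Of 26 measured, 0 passed in either direction, and the differences ran from −0.13 to 0.20 with a median of 0.04. Sox10, the factor that drives myelin genes, had 6.36, 6.37 and 6.46 in the induced clones, against 6.50, 6.24 and 6.60 in the uninduced ones. The myelin genes Mbp, Mog and Mag differed by 0.09, 0.13 and 0.20, and Cnp, an enzyme of myelinating cells, by −0.13. In the Olig2 clones Mbp, a main protein of the myelin sheath, rose by 0.83 (limma adjusted p = 0.0146), while the difference between the responses, −0.74, did not pass (limma adjusted p = 0.0791). Nkx2-2, a factor of ventral progenitors, differed by −0.03, and Cspg4, the proteoglycan NG2, by 0.18. Mog and Nkx2-2 lay under the lower quartile of the arrays, or close to it.

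Genes of the neural tube and of neurons did not pass either. Among 27 genes of ventral patterning the median was 0.0028, with Pax7, a dorsal progenitor factor, at 0.24 and Dlx2, a forebrain homeobox gene, at −0.25. Among 17 astrocyte and radial glia genes Aldh1l1, a folate enzyme of astrocytes, was at −0.26 and Nfia at 0.24. Of 22 neuron genes Myt1l, a zinc finger factor of neurons, had 4.98, 5.12 and 5.23 in the induced clones, against 4.72, 4.88 and 4.80 in the uninduced ones (difference 0.31, limma adjusted p = 0.992). Tbx6, a T-box factor of the paraxial mesoderm, had 3.83, 3.87 and 3.70 in the induced clones, against 3.43, 3.53 and 3.40 in the uninduced ones (difference 0.35, limma adjusted p = 0.992). Myt1l and Tbx6 were the list members with an unadjusted p under 0.01. Their groups did not overlap, beside 6.27% of all probesets (3.88% higher), from which nothing is read since their low p chose them. Both lay near or under the median level of the array.

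Of 25 genes of spermatid chromatin and head shaping 0 passed, 2 were higher (Tssk1 0.27, Septin4 0.23) and 1 lower (Tekt1 −0.21) at an unadjusted p under 0.05, beside 2.05% higher and 1.38% lower of all genes, and the median was 0.07, the highest of the 25 lists. This list was written after the study had named such a process for these samples, so it is not independent evidence. Genes of DNA replication (median −0.01), mitosis (−0.01), cholesterol synthesis (−0.06), heat shock (−0.01), glycolysis (0.03) and the interferon response (0.02) had 0 members with an unadjusted p under 0.05.

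The response to Olig1 was then compared with those to the other genes at 24 hours, each as the difference within a clone, since the arrays of each experiment had been normalised apart. Against the mean of the 13 other experiments, 0 of 45101 probesets (0%) passed limma, with 1919 (4.25%) at an unadjusted p under 0.05. The lowest adjusted p, 0.222, was that of Sox11, a SoxC factor of neural progenitors. Sox11 had 5.49, 5.96 and 5.17 in the induced Olig1 clones, against 5.74, 6.24 and 5.60 in the uninduced ones, so that each clone was lower, by 0.25, 0.28 and 0.43. The mean difference was −0.32 with Olig1 and 0.48 over the 13 other experiments, which ranged from −0.07 to 2.01, and the difference between them was −0.80. Without Erg, Nrip1 and Olig2 among the others, or without Olig1 clone 1, the lowest adjusted p over all probesets was 1.00.

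Against Olig2, its closest paralog in the bank, the response differed for 145 probesets (0.322%), of which 74 were more positive with Olig1 (0.164%) and 71 more negative (0.157%). With Olig2 alone 795 probesets passed, 372 higher and 423 lower in induced cells, and 144 of the 145 are among them. Over the 145, which were chosen for the difference between the responses, the median absolute log2 difference was 0.09 with Olig1 and 0.82 with Olig2, beside 0.07 with Olig1 and 0.07 with Olig2 over all probesets. The genes named next are the 10 with the largest difference in each direction among those in which the 3 Olig1 clones had 1 sign. That condition leaves out larger differences, such as −2.46 for a probeset of Nt5e, an ectonucleotidase, and 2.21 for one of Slco4a1, an organic anion transporter, which were picked after their values had been seen. Nt5e differed by −0.09 with Olig1 and 2.37 with Olig2, and Slco4a1 by −0.16 with Olig1 and −2.37 with Olig2.

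The metabolic gene Fbp1, an enzyme of gluconeogenesis, differed by −0.22, −0.11 and −0.12 in the Olig1 clones and by −1.74, −2.01 and −1.28 in the Olig2 clones, which gave a difference between the responses of 1.53 (standard error 0.17, limma adjusted p = 0.00940). Mical1, which oxidises actin, differed by −0.02, −0.14 and −0.28 in the Olig1 clones and by −1.44, −1.23 and −1.46 in the Olig2 clones. Pax8, a paired-box factor of thyroid and kidney, differed by 0.16, 0.18 and 0.03 in the Olig1 clones and by −0.59, −1.49 and −1.30 in the Olig2 clones. In each of these genes the Olig2 clones lay below all Olig1 clones, from which nothing is read since that difference chose them.

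On the other side Cebpd, a C/EBP factor of acute responses, differed by −0.00, −0.07 and −0.35 in the Olig1 clones and by 1.65, 1.51 and 1.39 in the Olig2 clones (difference between the responses −1.65, standard error 0.13, limma adjusted p = 0.00216). Ascl2, a bHLH factor of trophoblast, differed by 0.41, 0.20 and 0.07 in the Olig1 clones and by 1.05, 1.55 and 1.55 in the Olig2 clones. Sox11 differed in the Olig2 clones by 0.87, 0.48 and 0.90, opposite in sign to its Olig1 values. Tfap2c, an AP-2 factor of trophectoderm and germ cells, differed by −0.22, −0.08 and −0.08 in the Olig1 clones and by 0.80, 0.87 and 0.78 in the Olig2 clones. Hmgb3, a chromatin protein, differed by −0.02, −0.17 and −0.09 in the Olig1 clones and by 0.81, 0.93 and 0.85 in the Olig2 clones. At the probesets named for Cebpd, Tfap2c and Hmgb3 no Olig1 clone was higher after induction and each Olig2 clone was, and these too were chosen by the difference. Other Tfap2c probesets past the test differed by 0.02 and −0.19 with Olig1, and by 0.76 and 0.74 with Olig2. The 20 named genes also include Nbdy, Klk1, Mras, Dram2, Kifc3, Ryr3 and Parp12 with the positive, and Cldn9, Reep1, Dennd5b, Ms4a4d and Ptges with the negative differences.

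These calls depended on the variance model. With trend and robust moderation 0 probesets passed (lowest adjusted p among the 20 named genes 0.107, 3922 of all probesets at an unadjusted p under 0.05), without the clone pairing 7 did, and leaving out Olig1 clone 1 or 3 left 40 or 50. The study's own tables name the Olig2 arrays after clones of which 2 are listed under Olig1, and the identity of those arrays was not tested.

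**Figure D3:**
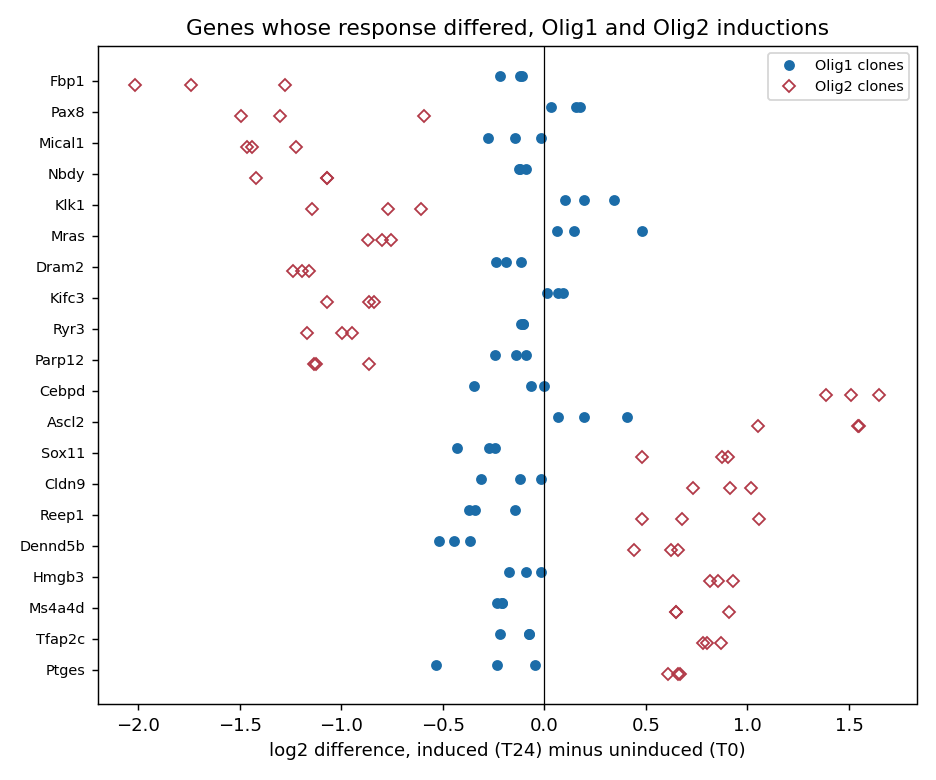
Log2 difference, induced (T24) minus uninduced (T0), per clone for the 20 genes named in the comparison of Olig1 (filled circles) with Olig2 (open diamonds). The Olig1 circles lie between −0.53 and 0.48, while the Olig2 diamonds reach −2.01 for Fbp1 and 1.65 for Cebpd.

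The 3 Olig1 clones differed from each other in more probesets than induced cells differed from uninduced ones. Tested in the same fit after these values had been seen, 2669 probesets (5.92%) differed between clones at a limma adjusted p under 0.05, and 789 of them (1.75%) had clone means more than 1 log2 unit apart. Clone 2 stood farthest apart in 413 of those 789, clone 1 in 253 (225 of them higher) and clone 3 in 123. The deviations of a clone from the mean of the clones correlated between its induced and uninduced arrays at 0.59, 0.59 and 0.53 for clones 1, 2 and 3.

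Genes of the primitive and visceral endoderm, an extraembryonic lineage that surrounds the epiblast and can arise in ES cultures, had the highest share of such genes among the 25 lists. Of the 20 measured, 16 (80.0%) passed the test of clones, against 7.84% of all genes with 1 probeset each, and clone 1 was the highest in all 16 and clone 2 the lowest in 14. The exceptions to the order were Lamb1 and Krt19, in which clone 3 was lowest. The list mean was 8.88 in clone 1, 6.48 in clone 2 and 7.27 in clone 3.

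Cubn, cubilin, the endocytic receptor of visceral endoderm, had 10.55, 5.60 and 7.49 in the induced clones 1, 2 and 3, against 10.66, 5.67 and 7.86 in the uninduced ones, a 31.3-fold range between clone means (limma adjusted p for clones = 2.57e-05). Amn, the partner that anchors cubilin in the membrane, had 10.16, 5.82 and 7.41 in the induced clones, against 10.41, 5.79 and 7.64 in the uninduced ones. The adaptor gene Dab2, of the same endocytic route, had 10.89, 6.14 and 7.76 in the induced clones, against 10.60, 6.12 and 7.76 in the uninduced ones. In all 3 genes the clones kept their order in both states, and induction moved them by at most 0.18 in the mean.

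The transcription factors of the lineage followed. Gata6, which specifies primitive endoderm, had 8.84, 4.59 and 6.45 in the induced clones, against 8.50, 4.81 and 6.32 in the uninduced ones. Gata4 had 8.22, 4.62 and 5.69 in the induced clones, against 7.81, 5.01 and 5.68 in the uninduced ones. Sox7 had 8.49, 4.75 and 6.13 in the induced clones, against 8.28, 4.87 and 6.52 in the uninduced ones. The basement membrane genes Col4a1, Col4a2, Lama1 and Lamb1 spanned 3.21, 3.77, 2.05 and 1.46 between clone means. Hnf4a, Ttr, Apoa1 and Afp, genes of visceral endoderm and its later derivatives, did not pass the test of clones, and Afp lay between 3.59 and 4.16 in all 6 arrays. In such bulk samples, a larger number of endoderm cells and more RNA per cell cannot be told apart.

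Promoter sequences of 12 of the list's genes were matched by symbol in RefSeq (GRCm38.p6), and the letters AGATAA or TGATAA, to which GATA factors bind, were sought on both strands in the 250 bases before the start. They occurred in 2 of the 12 (16.7%), beside 5452 of all 32851 promoters of the table (16.6%), and in 1 of the 9 whose genes differed between clones. That one is Dab2, shown because it was also among the widest in range, at chr15:6299598-6299627 on the plus strand, with the match in capitals.
Dab2 promoter: tgatttttcttcTGATAAcaggaataggag

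**Figure D4:**
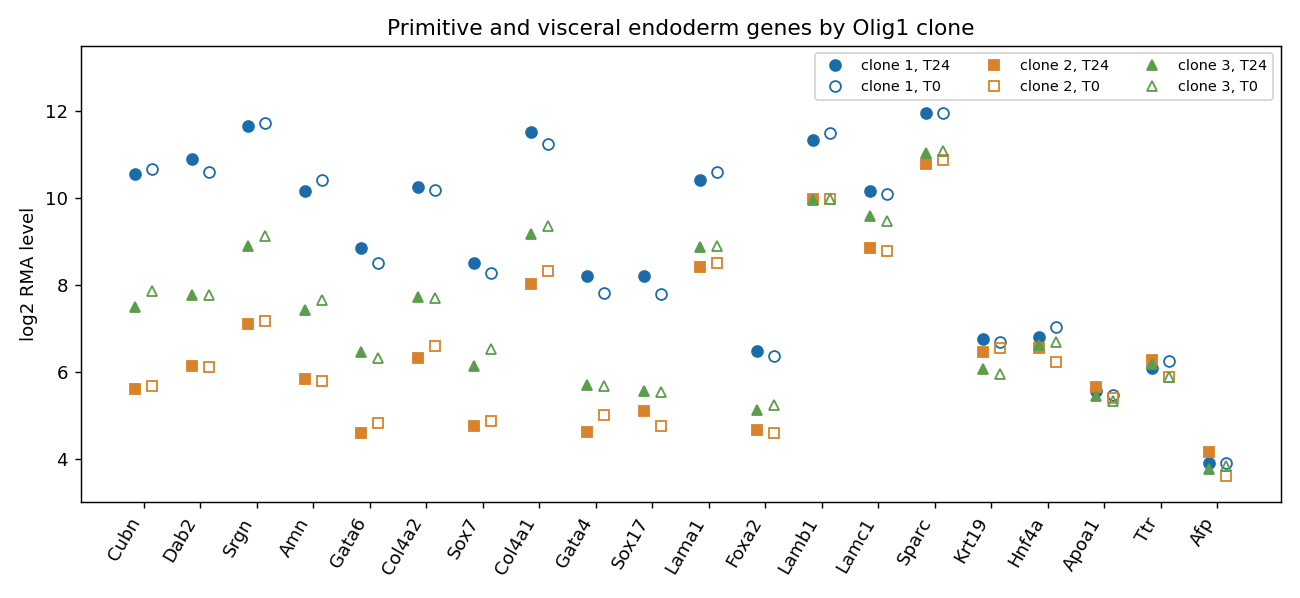
Log2 RMA level (vertical axis) of the 20 measured primitive and visceral endoderm genes in the Olig1 clones, induced (filled) left of uninduced (open). Symbols mark the clones. Clone 1 lies highest in all 16 genes that differed between clones, such as Cubn with 10.55 and 10.66, and the 2 states of a clone lie close together.

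Other lineage genes also varied by clone, and the counts that follow stand beside 7.84% of all genes. The epithelial keratin Krt8 had clone means of 9.51, 6.35 and 8.29, and Krt18 8.66, 6.41 and 7.75, in clones 1, 2 and 3. Pdgfra, a receptor of oligodendrocyte precursors that primitive endoderm also expresses, had 7.68, 4.87 and 5.33 in the induced clones, against 7.91, 4.73 and 5.50 in the uninduced ones, and was the only 1 of the 26 oligodendrocyte genes that passed the test of clones. Of 8 measured genes of the 2-cell-like state, a rare state of ES cells, 5 passed, with clone 1 the highest in each. Zfp352, one of them, had clone means of 7.34, 5.96 and 5.93. Of 20 hypoxia targets 9 passed. Bnip3, a mitophagy receptor, had means of 9.94, 10.53 and 8.75 in clones 1, 2 and 3. Egln3, an oxygen-sensing hydroxylase, had 7.18, 7.72 and 5.92, so that clone 3 was lowest in both. Among the 9, clone 2 was lowest in 1, P4ha2, with means of 9.33, 7.22 and 7.30. Of 28 pluripotency genes 5 passed, and Klf2, a factor of the naive state, had means of 10.96, 12.12 and 11.11. The immediate early gene Egr1 had means of 9.71, 11.59 and 9.22, and the Hedgehog receptor and target Ptch1 8.64, 10.21 and 9.63. The lists of DNA replication, mitosis and cholesterol synthesis had 0 members that passed.

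Clone 3 stood apart in 3 genes that are known to be imprinted and were picked after their values had been seen, with no list of imprinted genes examined. Nnat, neuronatin, had 4.01, 3.59 and 7.68 in the induced clones 1, 2 and 3, against 3.49, 3.57 and 7.46 in the uninduced ones. Plagl1, a zinc finger regulator of growth, had 4.08, 4.31 and 7.27 in the induced clones, against 3.72, 4.32 and 7.15 in the uninduced ones. Grb10, an inhibitor of insulin signalling, had 7.58, 8.04 and 4.64 in the induced clones, against 7.59, 8.43 and 4.24 in the uninduced ones.

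Clone 2 was low in genes of the Y chromosome. Eif2s3y, a translation factor subunit, had 8.36, 5.02 and 8.51 in the induced clones 1, 2 and 3, against 8.33, 4.95 and 8.60 in the uninduced ones. Uty, a histone demethylase paralog, had 6.56, 3.35 and 6.70 in the induced clones, against 6.81, 3.11 and 6.83 in the uninduced ones. Of 20 probesets of Y-linked genes, 7 passed the test of clones, and clone 2 lay below the others for Eif2s3y and Uty in both states. Low Y levels were not particular to Olig1. Over 6 Y probesets that were above the median level in an Olig1 clone, the mean of clone 2 was 4.50. Of the 57 clones on this array, 5 had a mean under 4, and these came from 5 other experiments, each normalised apart. The means of Dscr1 clone 2 (4.30) and of Dyrk1a clones 2 and 3 (4.48 and 4.38) also lay below that of Olig1 clone 2.

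Spread between clones was not confined to Olig1. In the 19 experiments on this array, the count of probesets that differed between clones was 0 to 6815, and Olig1 with 2669 had rank 4. The range of the endoderm list mean over 3 clones was 2.40 for Olig1, second to 3.17 for Ets2 and followed by 2.08 for Pknox1, while the others lay between 0.07 and 1.23. Without the probesets that differ between the clones, the test of induction also called 0.

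**Figure D5:**
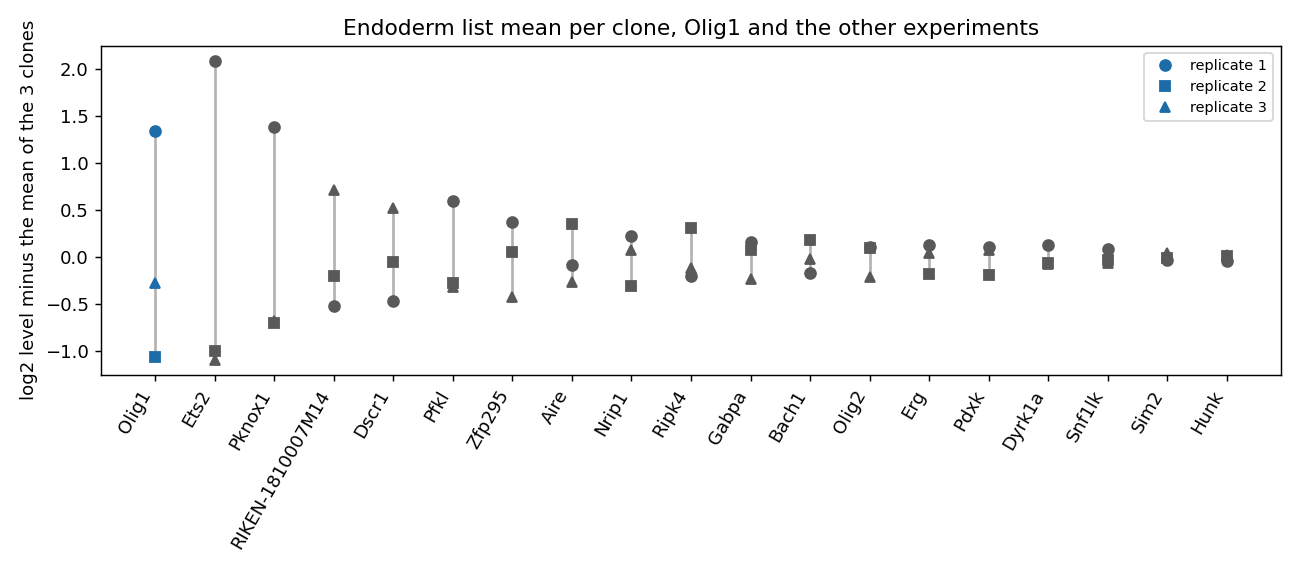
Mean log2 level of the endoderm list in each clone, minus the mean of the 3 clones of its experiment (vertical axis), for Olig1 (blue) and the other 18 experiments on the same array (grey). Lines join the lowest and the highest clone, a span of 2.40 for Olig1 and 3.17 for Ets2.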

How the data were processed

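Total RNA of each clone in each state was labelled and hybridised to 1 Affymetrix array. The deposited values are log2 levels that the authors made by robust multi-array average (RMA, affy package), done separately for each induced gene, so that levels were compared within an experiment. Probesets were named by the array annotation: of 45101, 34958 have 1 gene. limma 3.58.1 in R 4.3.3 fitted induced minus uninduced with the clone as a block, and Benjamini-Hochberg adjustment ran over all probesets. The design states that each clone was profiled before and after induction, and the deviations of same-numbered arrays correlated at 0.59, 0.59 and 0.53. Comparisons with other experiments used the differences within clones (42 at 24 hours, 6 with Olig2). Named genes are those that follow from a written rule on p, 1 sign in all Olig1 clones and size (15 per direction, 10 per direction against Olig2), the pluripotency factors and list members; the others, and the test of clones, were chosen after values had been seen. For each list gene the probeset of the highest mean over the 6 arrays was used. Members and lists were chosen with earlier results of these data known. Alternatives are given in the last section. Clones are separate isolates of 1 line, and p-values of induction reflect how much the response varied between them. The test of clones used that same residual spread, with 1 array per clone and state. Its p-values therefore do not measure how much isolates vary, and clone and culture cannot be told apart. Figures were made with matplotlib 3.10.9. Runx1, on another array, was not used.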

Additional observations from a re-analysis of the deposited data

Results flagged for a closer look

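The response to Olig1 differed from that to Olig2, by a test of the difference itself, for 145 probesets (0.322%). This count depended on the variance model, and the identity of the Olig2 arrays was not tested. From the 145, 20 genes were named by the rule that all Olig1 clones have 1 sign. That rule leaves out larger differences such as −2.46 for Nt5e and 2.21 for Slco4a1. The differences, as log2 of Olig1 minus Olig2, were positive for Fbp1 (1.53), Pax8 (1.25), Mical1 (1.23), Nbdy (1.07), Klk1 (1.05), Mras (1.04), Dram2 (1.02), Kifc3 (0.98), Ryr3 (0.93) and Parp12 (0.88). They were negative for Cebpd (−1.65), Ascl2 (−1.16), Sox11 (−1.07), Cldn9 (−1.04), Reep1 (−1.02), Dennd5b (−1.02), Hmgb3 (−0.96), Ms4a4d (−0.95), Tfap2c (−0.94) and Ptges (−0.91). Groups of 3 arrays were not searched for outlying arrays.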

How the results depend on the processing

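The count of probesets changed by Olig1 induction stayed at 0 with no replicate block (lowest adjusted p 1.00, 794 at an unadjusted p under 0.05), in a Cyber-t form of test (1694), in the methods' t-test after Benjamini-Hochberg adjustment (1291 at an unadjusted p under 0.05), in the 2 pooled fits, both scalings, without dim probesets, at an FDR of 1% and without the probesets that differ between clones, and was 0 to 2 when 1 clone was left out. The Olig1 probeset difference was −0.0098 after a second quantile normalization, −0.0033 after median centring and between −0.13 and 0.13 without 1 clone, and the dim filter removed it. Against the other 24 hour experiments the count stayed at 0 in all settings. Against Olig2 it was 0 with trend and robust moderation, 7 with no replicate block and 40 to 158 without 1 Olig1 clone. All 20 named genes lost the call under trend and robust moderation, and the causes were not tested. Probesets that differ between clones numbered 946 at an FDR of 1% and 1086 to 2815 without 1 clone, and the endoderm genes among them 10 to 16. List members past the test stayed at 0. Of the 30 named genes, no direction changed. The rule of 1 sign in all clones fixes this when 1 clone is left out, and most other settings keep the same difference. Signal near background and 3 clones limit small differences.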
